A study of Homo sapiens with 6 samples.

Results

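Silencing of SDC1 in the breast cancer cell line MDA-MB-231 was accompanied by opposite movement of probe sets that the array annotation assigns to the same gene. The genes described here are ENSA, CYRIA, SUN1, AFDN, CDC14B, CHD1L and CRLS1. They are 7 of 19775 genes with a probe set tied to a single gene, and they were picked because some of their probe sets rose and others fell after the SDC1 small interfering RNA (siRNA). All of their single-gene probe sets were kept, 37 of the 54613 probe sets tested, and no filter on low values was applied. The rises and falls of these probe sets are therefore a description of how the genes were chosen, and no p-value is given for them.

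The cells received either siRNA against SDC1 or a negative control siRNA, with 3 arrays for each, from replicates that the series describes as independent. MDA-MB-231 is an established triple-negative breast cancer line, and both groups went through a transfection. Untransfected cells are not among these samples, and a loss after SDC1 siRNA cannot be told from a gain after control siRNA. The labels name the target of the siRNA but not its sequence, dose or time. In cell cultures read in bulk, fewer cells with a transcript and less of it per cell cannot be told apart.

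Arrays of this design read RNA through probe sets, groups of short probes that mostly lie near the 3′ end of the sequence record they were designed from. Many human genes make transcripts that differ in splicing or in the site where the 3′ end is cut and polyadenylated, so that probe sets of a gene need not read the same transcripts. The annotation used here gives a gene and often a sequence record for each probe set, but not the transcripts it reads, so isoform and 3′ end use were not tested. The probe sequences were not used here.

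The 7 genes serve separate processes. ENSA, alpha-endosulfine, is phosphorylated by the mitotic kinase Greatwall and then inhibits the phosphatase PP2A-B55, which lets cells enter and hold mitosis. CDC14B is a phosphatase that acts on sites phosphorylated by cyclin-dependent kinases. CYRIA belongs to a family of proteins that bind active RAC1 and restrain the WAVE complex, the actin regulator of lamellipodia, and AFDN, afadin, links nectin adhesion molecules to actin at cell junctions. SUN1 spans the inner nuclear membrane and couples the nucleus to the cytoskeleton, CHD1L is a chromatin remodeller switched on by poly(ADP-ribose), and CRLS1 makes cardiolipin, the signature lipid of the inner mitochondrial membrane.

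Every value below is a log2 expression with that probe set's 6-array median taken off, so it shows a change but not a level. Where the groups do not overlap, the lowest array of the higher group and the highest array of the lower group mirror each other around 0 by this centring. A positive log2 fold change means higher in SDC1 siRNA than in control siRNA cells, and its standard error (SE) comes from limma with 3 arrays per group. A probe set is said to have risen or fallen where limma's Benjamini-Hochberg adjusted p over all probe sets was under 0.05. Both SDC1 probe sets fell, with log2 fold changes of -2.70 and -2.14 (limma adjusted p = 1.05e-06 and 6.28e-05), which left 15.3% and 22.7% of the control signal. The poly-A spike-in probe sets, which read bacterial transcripts put into each RNA sample, averaged 0.39 to 0.68 in SDC1 siRNA replicates 1 and 2 and control replicate 1, and -0.47 to -0.43 in the other arrays, and fold changes within these sets of arrays are given for the probe sets of highest and lowest fold change.

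Of the 37 probe sets of the 7 genes, 12 rose and 9 fell, while 16 did neither. Over all probe sets 9.7% rose and 10.1% fell. The 16 that passed in neither direction had log2 fold changes between -0.32 and 0.22. In 26 of the 37 the SDC1 siRNA and control arrays held separate ranges, as they did in 35.7% of all probe sets. Nothing is read from these counts, since the choice of genes fixed them. The median log2 fold change was 0.07 over the 37 probe sets and 0.01 over all probe sets tested.

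**Figure D1:**
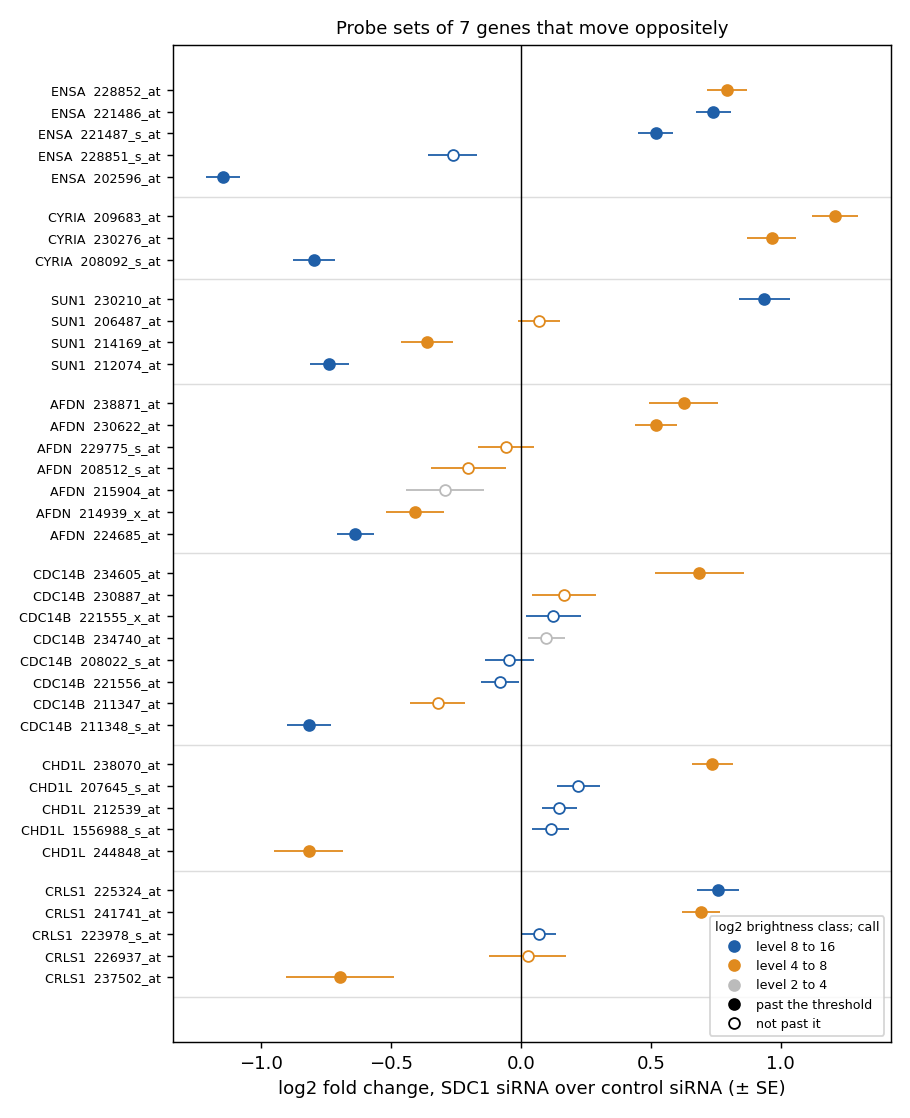
Log2 fold change (SDC1 siRNA over control siRNA, x axis) of each of the 37 probe sets with its SE, grouped by gene down the page; filled points passed the threshold of limma's adjusted p, open points did not, and colours give the brightness class. Each gene has filled points on both sides of 0, with ENSA reaching from -1.15 to 0.79 and CYRIA from -0.80 to 1.21.

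ENSA was read by 5 probe sets, of which 3 rose and 1 fell. The probe set that fell, 202596_at, had values of -0.61, -0.58 and -0.55 in SDC1 siRNA arrays, against 0.55, 0.58 and 0.58 in control arrays. Its log2 fold change was -1.15 (SE 0.066), a 2.21-fold loss, and the arrays within a group were close together (SD 0.032 in SDC1 siRNA and 0.019 in control arrays). The probe set with the highest fold change, 228852_at, had 0.42, 0.43 and 0.34 in SDC1 siRNA arrays, against -0.35, -0.34 and -0.51 in control arrays. It rose by 0.79 (SE 0.077), or 1.73-fold. Neither group of arrays overlapped the other in these probe sets. ENSA probe sets 221486_at and 221487_s_at also rose, by 0.74 (SE 0.067) and 0.52 (SE 0.068). The fifth, 228851_s_at, was at -0.26 (SE 0.093) and did not pass the test. In all 6 arrays the ENSA probe sets that rose and the one that fell lay on opposite sides of their medians, which the centring fixes where groups do not overlap. Within the arrays of high spike-in values the log2 fold changes of 202596_at and 228852_at were -1.14 and 0.77, and within those of low values -1.12 and 0.76, so ENSA had nearly the same values in both sets.

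Each of the 3 CYRIA probe sets passed the threshold. In SDC1 siRNA arrays 209683_at had 0.62, 0.54 and 0.58, against -0.55, -0.80 and -0.54 in control arrays, a rise of 1.21 (SE 0.088) or 2.31-fold. With it rose 230276_at, by 0.96 (SE 0.093). In contrast, 208092_s_at had -0.32, -0.38 and -0.42 in SDC1 siRNA arrays, against 0.54, 0.41 and 0.32 in control arrays, and fell by 0.80 on the log2 scale (SE 0.080). The rise was the larger of the opposing changes, and no array of a group crossed into the other group. The probe set that fell is of the brightest class and those that rose are of the middle class, as described further on. Its log2 fold changes were -0.90 and -0.78 within the arrays of high and low spike-in values, and those of 209683_at were 1.13 and 1.25.

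SUN1 was read by 4 single-gene probe sets, of which 1 rose and 2 fell. The one that rose, 230210_at, had 0.33, 0.58 and 0.48 in SDC1 siRNA arrays, against -0.61, -0.49 and -0.33 in control arrays, a log2 fold change of 0.94 (SE 0.098). The larger fall was that of 212074_at, with -0.42, -0.31 and -0.31 in SDC1 siRNA arrays, against 0.45, 0.31 and 0.41 in control arrays, or -0.74 (SE 0.075). The groups were apart in both. Within the arrays of high and low spike-in values, 230210_at was at 1.06 and 0.89 and 212074_at at -0.82 and -0.67. The smaller fall, of 214169_at at -0.36 (SE 0.10), did not hold when an array was left out, other than control replicate 3, and ranged from -0.38 to -0.26 in the fits that lost it. It was -0.56 and -0.26 within the arrays of high and low spike-in values. Control replicate 1 was its highest array at 0.45, and the other control arrays were at 0.25 and 0.07. The probe set 206487_at was at 0.07 (SE 0.080). A further probe set that the annotation assigns to SUN1 together with its neighbour in the annotation, GET4, was not counted as a SUN1 reading and was at -0.27 (SE 0.089), short of the threshold.

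AFDN was read by 7 probe sets, of which 2 rose, 2 fell and 3 did neither. In 224685_at the values were -0.27, -0.30 and -0.37 in SDC1 siRNA arrays, against 0.34, 0.27 and 0.37 in control arrays, a log2 fold change of -0.64 (SE 0.071). The highest, 238871_at, had 0.29, 0.53 and 0.10 in SDC1 siRNA arrays, against -0.10, -0.44 and -0.42 in control arrays, or 0.63 (SE 0.13). The groups did not overlap, but SDC1 siRNA replicate 3 and control replicate 1 lay close together in 238871_at. A tighter rise was that of 230622_at, at 0.52 (SE 0.081), with 0.19, 0.42 and 0.32 in SDC1 siRNA arrays and -0.26, -0.19 and -0.19 in control arrays. The second fall, of 214939_x_at at -0.41 (SE 0.11), is that of a probe set whose name marks it as open to cross-hybridisation, and its call was lost without any single array except control replicate 1, with values from -0.45 to -0.29 in those fits. The 3 AFDN probe sets that did neither were at -0.29, -0.20 and -0.06, and their groups overlapped. In the arrays of high and low spike-in values 224685_at was at -0.62 and -0.69 and 238871_at at 0.51 and 0.53, while 215904_at, which did not pass, was at 0.05 and -0.41.

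CDC14B had the most probe sets of the 7 genes, 8, of which 1 rose, 1 fell and 6 did neither. The fall, in 211348_s_at, gave -0.49, -0.53 and -0.30 in SDC1 siRNA arrays, against 0.39, 0.43 and 0.30 in control arrays, a log2 fold change of -0.82 (SE 0.085). It was -0.90 and -0.67 within the arrays of high and low spike-in values. The rise, in 234605_at, gave 0.42, 0.22 and 0.09 in SDC1 siRNA arrays, against -0.09, -0.82 and -0.43 in control arrays, or 0.69 (SE 0.17). Control arrays were widely spread in this probe set, with an SD of 0.37, and control replicate 1 sat next to the SDC1 siRNA arrays. Its call was lost without control replicate 3 (0.69), without SDC1 siRNA replicate 1 (0.60) or without SDC1 siRNA replicate 2 (0.70), and its log2 fold change was 0.41 within the arrays of high spike-in values and 0.71 within those of low ones. The other CDC14B probe sets were between -0.32 and 0.17.

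CHD1L moved apart in 2 of its 5 probe sets while the remaining 3 changed little. The rise, of 238070_at, had 0.40, 0.44 and 0.29 in SDC1 siRNA arrays, against -0.34, -0.46 and -0.29 in control arrays, a log2 fold change of 0.74 (SE 0.080). The fall, of 244848_at, had -0.17, -0.52 and -0.44 in SDC1 siRNA arrays, against 0.57, 0.17 and 0.58 in control arrays, or -0.82 (SE 0.13). The groups were apart in both, with SDC1 siRNA replicate 1 and control replicate 2 the nearest arrays of 244848_at. The other 3, all in the brightest class, were at 0.22, 0.15 and 0.11 and did not pass the test, although their groups did not overlap. Within the arrays of high and low spike-in values 238070_at was at 0.76 and 0.66 and 244848_at at -0.91 and -0.82.

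CRLS1 had 2 probe sets that rose, 1 that fell and 2 that did neither. In 225324_at the values were 0.42, 0.28 and 0.42 in SDC1 siRNA arrays, against -0.28, -0.45 and -0.43 in control arrays, a rise of 0.76 (SE 0.081). Close to it was 241741_at, at 0.69 (SE 0.074), with 0.30, 0.32 and 0.33 in SDC1 siRNA arrays and -0.35, -0.47 and -0.30 in control arrays. The fall, of 237502_at, rested on more variable values, 0.02, -0.45 and -0.83 in SDC1 siRNA arrays against 0.41, 0.44 and -0.02 in control arrays, with a log2 fold change of -0.70 (SE 0.21). It was the only probe set past the threshold, of the 21, whose groups overlapped: SDC1 siRNA replicate 1 lay above control replicate 3. Its call was lost without control replicate 1 (-0.63), control replicate 2 (-0.61), SDC1 siRNA replicate 2 (-0.68) or SDC1 siRNA replicate 3 (-0.49). The fall of 237502_at was -0.63 and -1.04 within the arrays of high and low spike-in values, and 225324_at was at 0.63 and 0.86. The other 2 CRLS1 probe sets were at 0.07 and 0.03.

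**Figure D2:**
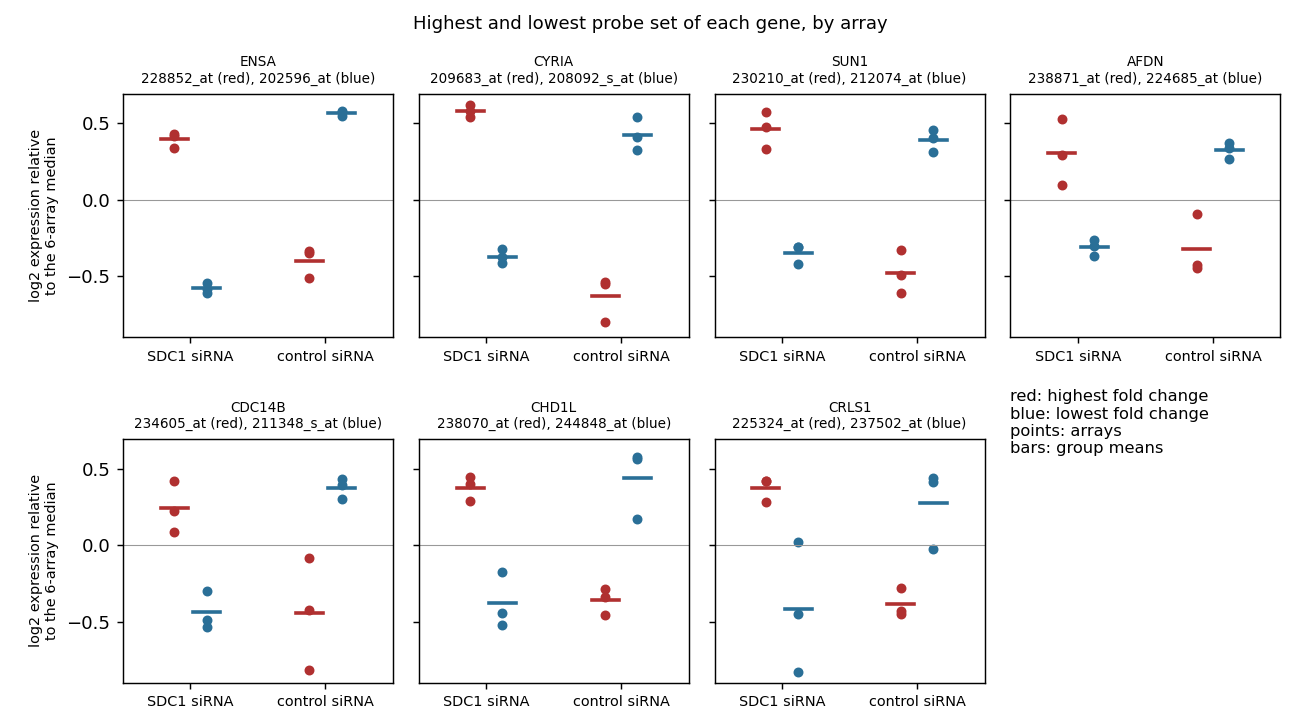
Log2 expression relative to the 6-array median (y axis) in each array of SDC1 siRNA and control siRNA cells, for the probe set of highest (red) and of lowest (blue) fold change of each gene, with bars at the group means of 3 arrays. Red points lie above blue points in every SDC1 siRNA array and below them in every control array, and CRLS1 237502_at is the one probe set shown whose groups overlap. Where the groups do not overlap, the choice of probe sets and the centring fix this order.

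The separation within a gene was also read array by array, as the value of the probe set of highest fold change minus that of the lowest. For ENSA this difference averaged 0.97 ± 0.08 in SDC1 siRNA arrays and -0.97 ± 0.10 in control arrays (SD, n = 3 each), a shift of 1.94 on the log2 scale or 3.84-fold. For CYRIA it averaged 0.95 ± 0.04 in SDC1 siRNA arrays and -1.05 ± 0.17 in control arrays, a shift of 2.01 or 4.02-fold. ENSA and CYRIA have no fixed order, since the ENSA shift was the larger without control replicate 2, and without _s_at probe sets CYRIA had no opposite calls. The shifts of the other genes were 1.68 for SUN1, 1.55 for CHD1L, 1.45 for CRLS1 and 1.26 for AFDN, and CDC14B shifted 2.83-fold. In each of the 7 genes the difference was above 0 in all SDC1 siRNA arrays and below 0 in all control arrays. Nothing is read from these signs. The choice of probe sets and the centring fix them where the groups do not overlap, as in all pairs but that of CRLS1. The spread was widest for CRLS1, with an SD of 0.43 in SDC1 siRNA arrays and 0.24 in control arrays, and for CDC14B, with 0.27 and 0.39. Because each probe set is centred on its own median, such a difference shows how the ratio of the readings changed and not which reading was brighter. Within the arrays of high and low spike-in values the shifts were 1.92 and 1.88 for ENSA, 2.03 and 2.03 for CYRIA, 1.88 and 1.55 for SUN1, and 1.26 and 1.90 for CRLS1.

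Probe sets near the threshold show where the calls within these genes begin. Just inside it were CRLS1 237502_at (log2 fold change -0.70), AFDN 214939_x_at (-0.41) and SUN1 214169_at (-0.36). Just outside it were CDC14B 211347_at (-0.32), ENSA 228851_s_at (-0.26) and CHD1L 207645_s_at (0.22).

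Several pairs of probe sets share the sequence record they are listed under. ENSA 228852_at, which rose by 0.79, and 228851_s_at, at -0.26, come from 1 record, of which only 228852_at passed the test. The ENSA probe set that fell, 202596_at, is not listed under that record. CDC14B 211348_s_at and 211347_at, at -0.82 and -0.32, share another record and had the same sign. CDC14B 234605_at and 234740_at, at 0.69 and 0.10, share a further one. These readings are not independent of each other in design. A record is listed for 29 of the 37 probe sets.

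Features that the choice of genes did not use were compared between the probe sets that rose and those that fell. The first is a coarse brightness class, read from the numeric steps of the deposited values, which places each probe set in a dim (log2 of 2 to 4), a middle (4 to 8) or a bright (8 to 16) class. Of the 12 that rose, 8 were in the middle class and 4 in the brightest. Of the 9 that fell, 4 were in the middle class and 5 in the brightest. Over all single-gene probe sets the brightest class held 52.5% of those that rose and 60.0% of those that fell. In ENSA, CYRIA, AFDN and CDC14B the lowest probe set was in a brighter class than the highest, in CRLS1 the reverse held, and in SUN1 and CHD1L both were in the same class. SUN1 212074_at, CHD1L 1556988_s_at and CRLS1 225324_at have steps coarser than their class leaves and may be placed too high. Other probe sets of the middle and brightest classes may be placed too high as well, since the step is read from few values.

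The second feature is the kind of record. Expressed sequence tags (ESTs), single reads from cDNA clones, stood behind 7 of the 12 probe sets that rose and 5 of the 9 that fell, and mRNA records behind 3 and 4. EST-based probe sets made up 37.4% of all single-gene probe sets that rose and 32.6% of those that fell, and mRNA-based ones 42.0% and 45.8%. Names ending in _s_at or _x_at, which mark probes shared between transcripts or open to cross-hybridisation, were carried by 1 of the 12 that rose and 3 of the 9 that fell. Over all single-gene probe sets, names ending in _s_at were carried by 27.0% of those that rose and 32.2% of those that fell. Names ending in _x_at were carried by 7.0% and 6.0%. Of the 21 probe sets past the threshold 17 carry neither mark. The falls of CYRIA and CDC14B are the ones that rest on an _s_at probe set alone.

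A single value for a gene can depend strongly on how such probe sets are joined. For CYRIA the mean log2 fold change was 0.46 over all 3 probe sets but -0.80 in its brightest class, which holds 1 probe set. AFDN was at -0.06 over all 7 and -0.64 in its brightest class, again a single probe set. ENSA came to 0.13 over all 5 and -0.04 over the 4 of its brightest class, values near 0 beside a 2.21-fold loss and a 1.73-fold gain of single probe sets. SUN1 was at -0.02 over all and 0.10 over its brightest class, CDC14B at -0.02 and -0.20, CHD1L at 0.08 and 0.16 and CRLS1 at 0.17 and 0.41. The sign of the gene value thus differed between the methods for ENSA, CYRIA and SUN1, but for ENSA and SUN1 both values were near 0. The brightest class of SUN1 holds 230210_at at 0.94 and 212074_at at -0.74, of which 212074_at may be placed too high.

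**Figure D3:**
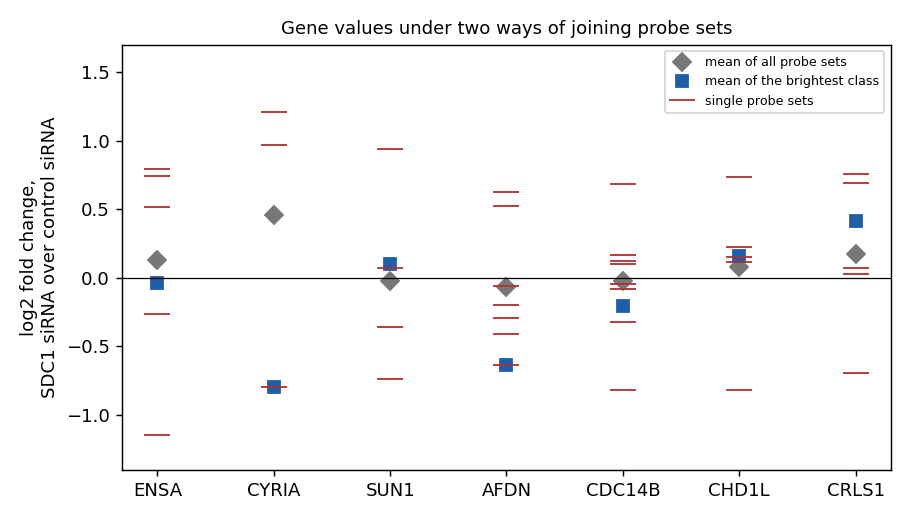
Log2 fold change (SDC1 siRNA over control siRNA, y axis) of the 7 genes (x axis): red dashes are single probe sets, grey diamonds the mean of all probe sets and blue squares the mean of the probe sets in the brightest class. CYRIA lies at 0.46 by the mean of all and -0.80 by the brightest class, and ENSA lies near 0 by both.

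Opposite calls were also counted over all genes on these arrays. Of 10523 genes with at least 2 single-gene probe sets, 227 had a probe set that rose and another that fell, or 2.16%, and the 7 genes are among them by choice. The 10523 include genes with fewer than 2 called probe sets, which cannot hold opposite calls. Of all 19775 genes with a single-gene probe set, 3058 had a rise and 3334 a fall. The count was 115 without SDC1 siRNA replicate 1, 120 without SDC1 siRNA replicate 2, 139 without control replicate 2, 150 without control replicate 3 and 119 without _x_at and _s_at probe sets, so the ranks below hold for the fit with all arrays and probe sets. The difference between the highest and lowest called log2 fold change had a median of 0.94 over the 227 genes, with an upper quartile of 1.19. As a description of genes picked for such values, all 7 lay above that quartile: CYRIA ranked 2nd, ENSA 4th, SUN1 14th, CHD1L 20th, CDC14B 22nd, CRLS1 24th and AFDN 45th. Over the 227 genes the probe set that fell most was in a brighter class than the one that rose most in 79, in a dimmer class in 42 and in the same class in 106.

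**Figure D4:**
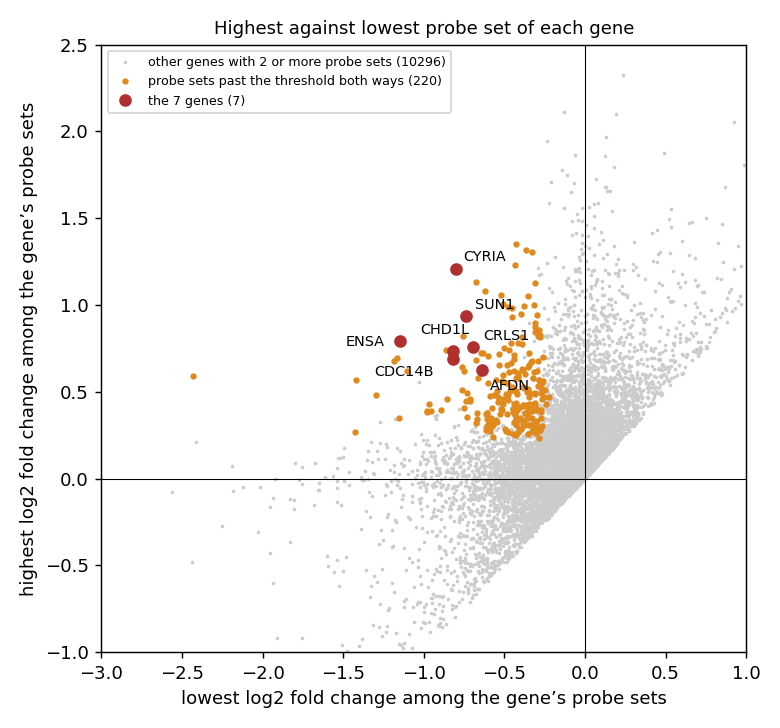
Highest against lowest log2 fold change (SDC1 siRNA over control siRNA) among the probe sets of each gene with at least 2 of them, for 10296 genes without opposite calls (grey), 220 others with them (orange) and the 7 genes (red). The 7 genes lie in the upper left, where a gene holds both a large fall and a large rise; 61 genes fall outside the plotted range.

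The genes most like the 7, by the difference between their called probe sets over the 6 arrays, were HMGA2, EPS15L1, RUFY3, NUP58 and ICE2. HMGA2, a chromatin architectural protein, had probe sets at -2.43 (SE 0.074) and 0.59 (SE 0.15). The HMGA2 rise lost its call without control replicate 3, SDC1 siRNA replicate 2 or SDC1 siRNA replicate 3, with log2 fold changes from 0.42 to 0.75 over the arrays left out, and with the spike-in sets as a block. EPS15L1, an endocytic adaptor, was at -1.42 and 0.57, and RUFY3 at -1.19 and 0.68. NUP58, of the nuclear pore, was at -1.16 and 0.70, and ICE2, of the little elongation complex, at -0.67 and 1.13. The calls of these last 4 genes held without any single array. Over the other settings tried, which include the spike-in sets alone, their rises were 0.56 to 0.58 for EPS15L1 and 0.41 to 0.92 for RUFY3. Those of NUP58 were 0.56 to 0.99 and those of ICE2 0.83 to 1.43. All 5 were picked for the size of this difference, so no p-value is given for them.

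Genes were listed by function around each of the 7, with earlier results of these data known. They are called acting genes, or genes acting with the 7, further on, but the lists also hold relatives and genes of the same process. For CHD1L these include other CHD remodellers, SMARCA1 and SMARCA5. Up to 2 called genes of each list are given with values, by their lowest p. A gene counts as risen or fallen where at least 1 of its probe sets did, and the values given are of the probe set of lowest p. Of 117 such genes 110 had a single-gene probe set. At least 1 probe set rose in 18 of the 110 and fell in 33, against 15.5% and 16.9% of all genes. Such a count grows with the number of probe sets per gene, which was not matched. By probe set, 27 of 294 rose and 56 fell. Over all single-gene probe sets, the like background, 4337 rose, 4942 fell and 31812 did neither. The shares were 9.7% and 10.1% over all probe sets tested, which include those tied to no gene. TOR1AIP2, which encodes an activator of torsin, was the only one called in both directions, with probe sets at 0.49 (SE 0.11, limma adjusted p = 0.0117) and -0.31 (SE 0.083, adjusted p = 0.0321). It was named after its values were seen, and its fall lost its call without control replicate 1 or 2 or SDC1 siRNA replicate 1 or 2, with log2 fold changes from -0.36 to -0.26 over the arrays left out. Its rise was that of a probe set in the dimmest class, with log2 fold changes from 0.29 to 0.72 over the other settings tried. The remaining TOR1AIP2 probe sets were between -0.11 and 0.19 and did not pass the test. Those of the brightest class were at -0.03 and -0.03.

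Around ENSA, 7 of 18 genes fell and 1, PPP2R2D, rose. The list holds the Greatwall and PP2A-B55 route together with CDK1, its cyclins and its regulators. CDC25A, CDC25B, CDC25C and WEE1, which are among those that fell, are such regulators. MASTL, the gene of Greatwall, and the B55 genes PPP2R2A, PPP2R2B and PPP2R2C did not pass the test. For ARPP19, the close relative of ENSA that Greatwall also phosphorylates, 1 of 3 probe sets fell, by 0.86 (SE 0.070, adjusted p = 8.08e-05). For PPP2R1B, a scaffold subunit of PP2A, 2 of 5 fell, that of lowest p by 0.77 (SE 0.076, adjusted p = 0.000212). Around CYRIA, 3 of 15 genes of RAC1 and the WAVE complex rose and 4 fell. Both probe sets of CYFIP2, a WAVE complex subunit, rose, that of lowest p by 1.88 (SE 0.15, adjusted p = 6.97e-05), and the only probe set of ARPC3 of the actin-nucleating Arp2/3 complex fell by 0.53 (SE 0.067, adjusted p = 0.000759). Around SUN1, 4 of 17 genes listed for the nuclear envelope rose and 5 fell, TOR1AIP2 counting in both. LMNB2, a B-type lamin read by 1 probe set, rose by 1.23 (SE 0.092, adjusted p = 5.45e-05). For SYNE1, a nesprin partner of SUN proteins, 1 of 5 probe sets rose, by 0.94 (SE 0.11, adjusted p = 0.000547), and the others were between -0.11 and 0.33.

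Around AFDN, 2 of 15 genes of nectin junctions and RAP1 rose and 4 fell. Both probe sets of PLEKHA7, an adherens junction protein, rose, that of lowest p by 1.37 (SE 0.079, adjusted p = 1.68e-05). For RAPGEF2, an activator of RAP1, 2 of 5 fell, that of lowest p by 0.45 (SE 0.072, adjusted p = 0.00254). Around CDC14B, 3 of 15 genes of the anaphase-promoting complex and its partners rose and 3 fell. For the subunit gene ANAPC10, 1 of 2 probe sets rose, by 2.11 (SE 0.085, adjusted p = 4.69e-06), while the other, in the brightest class, was at -0.13 with overlapping groups. For the activator FZR1, 2 of 4 rose, that of lowest p by 0.43 (SE 0.078, adjusted p = 0.00506). Around CHD1L, 4 of 17 genes of poly(ADP-ribose) signalling and chromatin remodelling rose and 6 fell. The lowest p among them was that of SMARCA1, with 3 of 4 probe sets lower and that of lowest p at -0.91 (SE 0.077, adjusted p = 9.71e-05), and next came CHD2, with 2 of 6 lower and that of lowest p at -0.93 (SE 0.10, adjusted p = 0.000385). Around CRLS1, 1 of 13 genes of cardiolipin metabolism rose and 4 fell. For PRELID1, which carries phosphatidic acid between the mitochondrial membranes, 1 of 2 probe sets rose, by 0.94 (SE 0.082, adjusted p = 0.000117). The other, also in the brightest class, was at 0.05 with overlapping groups. All 3 probe sets of the phospholipase PNPLA8 fell, that of lowest p by 0.79 (SE 0.071, adjusted p = 0.00013). The groups of arrays did not overlap in the probe set of lowest p of any of the 14 genes given with values here. However, 7 of the 14 had another probe set in which they did, and 9 had 1 or more that did not pass the test.

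Markers of the cell line were read by brightness class alone, since the centred values hold no levels. VIM, CD44, ITGB1 and KRT18, which MDA-MB-231 expresses, each had a probe set in the brightest class. PGR, PTPRC of leukocytes and COL3A1 of fibroblasts had none there, while the oestrogen receptor gene ESR1 had 3 of 9 and the endothelial PECAM1 1 of 5. Among these markers VIM fell in 2 of 2 probe sets and CD44 in 8 of 13, while PECAM1 rose in 2 of 5. The part of these changes in the values of the 7 genes was not tested.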

How the data were processed

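Total RNA of 6 cell cultures was labelled with biotin and read on 1 Affymetrix array per sample. The log2 values are as deposited by the authors, made with RMA (robust multi-array average) per the submitters' processing notes, which give no version. Other steps, such as scanner settings, are not stated in the labels. Every probe set has a median within 1e-06 of 0, so the values are centred, which was read from the values and leaves fold changes as they were.

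Of 54675 probe sets, 62 manufacturer controls were left out. The platform annotation ties 41097 to 1 gene, 1801 to several and 11777 to none, and symbols were updated through the RefSeq table of GRCh38.p14, which holds 41043 of the single-gene identifiers. All 54613 others were fitted with limma 3.58.1 in R 4.3.3 (lmFit, eBayes, 2-sided, no covariates, Benjamini-Hochberg at 0.05), a script tested on simulated data. The median SE was 0.090 on the log2 scale, and the number of arrays limits the precision. The p-values weigh each change against the spread between these replicates. In each SE, limma draws that spread toward the spread of all probe sets, so noisy probe sets can have smaller SEs than their own arrays give. Brightness classes held 11887, 25787 and 17001 probe sets, and 16.0% of the brightest had steps coarser than that class leaves.

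Genes given with values are SDC1, the 7 genes, up to 2 genes of each functional list by lowest p, TOR1AIP2 and the 5 other genes with the widest opposite calls. The 7 genes and the lists were chosen with earlier results of these data known.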

Additional observations from a re-analysis of the deposited data

How the results depend on the processing

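No fold change of a named probe set changed sign where it had passed the threshold. Settings tried were a robust prior, the replicate block, a spike-in block, quantile normalization, arrays centred on their medians, no dimmest class, no _x_at or _s_at probe sets, the arrays of high or of low spike-in values alone, and each array left out. Opposite calls held in 14 of 15 settings for ENSA, CYRIA and SUN1, 13 for AFDN and CHD1L, and 9 for CDC14B and CRLS1. With the replicate block 4855 probe sets rose and 5063 fell, and 12 and 9 probe sets of the 7 genes passed, the same numbers as without it, so the pairing changed no count by over 1.5 times, although SUN1 214169_at lost its call and CDC14B 211347_at gained one. Same-numbered replicates of the groups had correlations of their deviations of -0.008, 0.044 and 0.091, so the numbers were not taken to pair the samples.

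Within the arrays of high spike-in values 1435 probe sets rose and 1790 fell, with 7 and 5 probe sets of the 7 genes, 13 genes called in both directions, and 7 and 10 of the genes acting with them. Within the arrays of low values the numbers were 888 and 960, 4 and 2, 4, and 7 and 6. Each of these fits has 3 arrays, and the lone array of a group is assumed to vary like the others. Without _x_at and _s_at probe sets, which leaves fewer to test, 3370 rose and 3204 fell, 119 genes were called in both directions and 21 of the acting genes had a fall. With each array left out, 3638 to 4865 probe sets rose and 4171 to 4651 fell, 11 to 12 and 6 to 8 of those of the 7 genes did, 115 to 188 genes were called in both directions (115 without SDC1 siRNA replicate 1, 120 without SDC1 siRNA replicate 2, 139 without control replicate 2 and 150 without control replicate 3), and 15 to 21 and 28 to 31 acting genes rose and fell. Detection was not judged, since background signal was not among the values.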
